A study of Mus musculus with 8 samples.

Results

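The 3 Teashirt genes (Tshz1, Tshz2 and Tshz3) and the 3 COUP-TF genes (Nr2f1, Nr2f2 and Nr2f6) were taken by symbol from a table of 55421 mouse genes, and all 6 were present. They were followed in 8 RNA-seq libraries of the mouse vagal region (beside somites 1 to 7) taken at embryonic day 9.5: 4 of Rdh10 trex/trex mutants, called trex, and 4 of embryos labelled wt. The enzyme Rdh10 oxidises retinol in the first step towards retinoic acid, and trex is a mutation recovered in a chemical mutagenesis screen that impairs it throughout the embryo. The labels give no other allele or treatment, and do not say whether a sample was 1 embryo or a pool or whether samples shared a litter, so the errors below cover only the scatter of these libraries, part of which may be technical. The genes were selected on their TPM difference between trex and wt, already known from these libraries, so their own differences are given as a description, with no test.

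Teashirt proteins are zinc-finger and homeodomain transcription factors related to Drosophila teashirt, which works with Hox proteins to specify the fly trunk. COUP-TFs are orphan nuclear receptors that bind the same hexamer half-sites as retinoic acid receptors, can pair with retinoid X receptors and often repress transcription. Nr2f1 and Nr2f2 are themselves induced by retinoic acid in cultured embryonal carcinoma cells, and at this stage COUP-TFs are known from hindbrain, neural crest, pharyngeal and venous tissue.

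The stretches around 4 of the start sites are shown to set 2 paralogs of each family side by side: Tshz2 and Tshz3, both with higher means in trex, and Nr2f2 and Nr2f6, higher and lower in trex. Each is RefSeq sequence of assembly GRCm38.p6, the assembly of mm10, from 250 bases before to 50 bases after the annotated start. Capitals mark nuclear receptor half-sites, searched on both strands as the hexamer AGGTCA and its close variants, which are GGGTCA in which the opening base differs, AGTTCA in which an inner base differs, and GGTTCA with both.
Tshz2 (chr2:169632259-169632558, + strand): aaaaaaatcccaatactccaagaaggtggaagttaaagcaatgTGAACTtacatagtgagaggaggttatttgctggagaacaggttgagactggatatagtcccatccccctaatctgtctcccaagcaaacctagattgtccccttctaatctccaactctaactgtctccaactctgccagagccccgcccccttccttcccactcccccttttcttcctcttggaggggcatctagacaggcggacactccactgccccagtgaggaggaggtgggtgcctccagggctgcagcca
Tshz3 (chr7:36697868-36698167, + strand): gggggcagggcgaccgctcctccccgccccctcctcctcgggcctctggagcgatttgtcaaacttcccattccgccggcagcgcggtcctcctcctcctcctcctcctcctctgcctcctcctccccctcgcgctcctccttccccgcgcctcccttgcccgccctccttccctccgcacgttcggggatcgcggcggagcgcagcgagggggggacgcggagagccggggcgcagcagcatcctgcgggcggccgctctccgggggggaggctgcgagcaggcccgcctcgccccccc
Nr2f2 (chr7:70366697-70366996, - strand): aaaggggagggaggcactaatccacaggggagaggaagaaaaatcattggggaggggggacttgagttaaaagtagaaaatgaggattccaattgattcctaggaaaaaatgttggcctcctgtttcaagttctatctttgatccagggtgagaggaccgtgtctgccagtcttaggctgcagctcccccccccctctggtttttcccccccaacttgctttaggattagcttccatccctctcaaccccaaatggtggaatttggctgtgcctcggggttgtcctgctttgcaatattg
Nr2f6 (chr8:71381903-71382202, - strand): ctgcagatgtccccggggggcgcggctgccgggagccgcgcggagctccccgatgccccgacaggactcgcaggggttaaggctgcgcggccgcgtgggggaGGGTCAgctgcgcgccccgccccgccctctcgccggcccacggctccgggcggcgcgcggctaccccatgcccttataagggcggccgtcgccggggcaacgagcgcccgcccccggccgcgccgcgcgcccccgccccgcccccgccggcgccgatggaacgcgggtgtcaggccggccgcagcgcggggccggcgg

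The windows differed in base composition within each family. Tshz3 had 76.0% G+C and 33 CpG against 52.0% and 2 CpG in Tshz2. The Tshz3 window held the first base of the gene span used for the levels (36698118). That of Tshz2 lay wholly before its span, which begins at 169633013, so the RefSeq start used here differs from that span. Nr2f6 had 82.7% and 53 CpG against 49.7% and 2 CpG in Nr2f2. The median over 32851 such windows was 52.7% and 7 CpG. Nr2f1 has 2 annotated starts on chromosome 13, with 68.0% and 43.0% G+C. One half-site each lay in the Tshz2 window (AGTTCA on the other strand, bases -207 to -202 from the start), in the Nr2f6 window (GGGTCA, -148 to -143) and in the second Nr2f1 window (AGTTCA, -183 to -178). These hexamers occurred in 14.0% (AGTTCA) and 13.7% (GGGTCA) of all windows. No window of these genes held 2 half-sites in direct repeat spaced by 1, 2 or 5 bases, an arrangement found in 0.222%, 0.268% and 0.0974% of all windows. The GC box GGGCGG occurred 7 times in the Nr2f6 window, 3 times in that of Tshz3 and once in those of Tshz2 and the first Nr2f1 start; 35.7% of all windows held it. Tshz1 has no entry in the promoter table.

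Levels are given in TPM, transcript abundances scaled to a sum of 1000000 in each library, which are scaled by gene length and so can be compared between genes. In trex libraries the order of mean level was Nr2f1 (144 TPM), Nr2f6 (103), Nr2f2 (70.0), Tshz1 (51.3), Tshz2 (34.9) and Tshz3 (26.2). In wt libraries it was Nr2f1 (181), Nr2f6 (164), Tshz1 (110.5), Nr2f2 (60.7), Tshz2 (21.1) and Tshz3 (19.4), so Tshz1 and Nr2f2 stood in the opposite order in the genotypes. Neighbours whose libraries overlapped were Tshz2 and Tshz3 in both genotypes and Nr2f1 and Nr2f6 in wt. Each gene rested on between 565 and 5693 recovered reads in a library. In bulk tissue fewer cells of a type and less RNA per cell cannot be told apart.

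Within the Teashirt family, Tshz1 was lower in trex while Tshz2 and Tshz3 had higher means. Tshz1 (ENSMUSG00000046982, chromosome 18, 84011627 to 84087706, mm10), which mice need for the soft palate, middle ear and olfactory bulb, held 51.3, 51.8, 49.7 and 52.4 TPM in trex replicates 1 to 4 and 98.5, 111.6, 119.2 and 112.6 TPM in wt replicates 1 to 4. The groups did not overlap, and the trex libraries lay within 2.68 TPM of one another while wt spanned 20.7 TPM. The means were 51.3 ± 1.15 TPM in the trex libraries and 110.5 ± 8.68 TPM in the wt libraries (SD, n = 4 each), 2.15-fold lower in trex, with a difference of -1.09 ± 0.06 (SE) on the log2(TPM + 1) scale.

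Tshz2 (ENSMUSG00000047907, chromosome 2, 169633013 to 170071816) held 42.5, 31.2, 31.8 and 34.3 TPM in trex and 18.4, 20.2, 22.8 and 23.0 TPM in wt. All trex libraries lay above all wt libraries, with trex replicate 1 the highest. The means were 34.9 ± 5.20 TPM in the trex libraries and 21.1 ± 2.22 TPM in the wt libraries (SD, n = 4 each), 1.66-fold higher in trex, a log2 difference of 0.70 ± 0.11 (SE). Tshz3 (ENSMUSG00000021217, chromosome 7, 36698118 to 36773553), which mice need for ureter smooth muscle and breathing circuits of the hindbrain, held 33.7, 20.3, 22.5 and 28.2 TPM in trex and 19.1, 18.6, 20.8 and 19.1 TPM in wt. The groups overlapped, since trex replicate 2 lay below wt replicate 3. The means were 26.2 ± 6.002 TPM in the trex libraries and 19.4 ± 0.956 TPM in the wt libraries (SD, n = 4 each), a log2 difference of 0.39 ± 0.14 (SE). Trex replicates 1 and 4 were the highest libraries for both genes, whereas for Tshz1 no trex library stood apart.

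**Figure D1:**
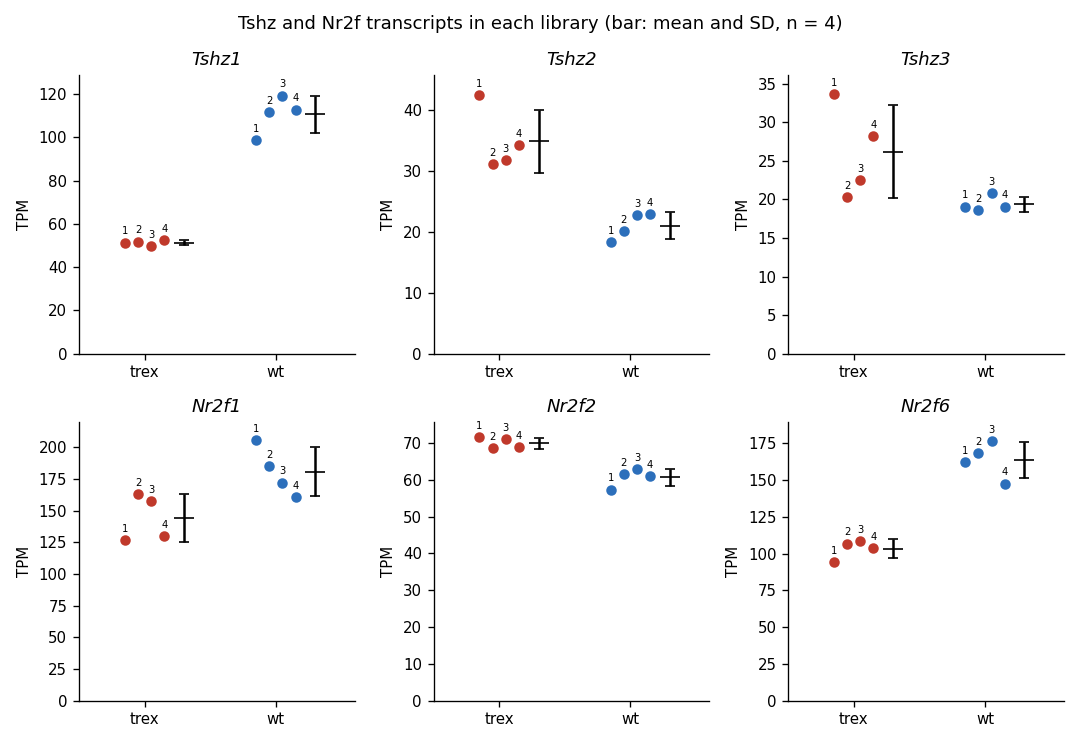
TPM of each Tshz and Nr2f gene (y axis, from 0) in the trex and wt libraries (x axis), with points numbered by replicate and bars at the mean and SD of 4 libraries. The genotypes do not overlap for Tshz1, Tshz2, Nr2f2 and Nr2f6, and overlap for Tshz3 and Nr2f1.

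The COUP-TF genes did not all differ in the same direction either. Nr2f1 (ENSMUSG00000069171, chromosome 13, 78188973 to 78199757), a gene of inner ear, neural crest and cortex development, held 126, 163, 158 and 130.0 TPM in trex and 206, 185, 172 and 160.4 TPM in wt. The groups overlapped at 1 library each, since trex replicate 2 stood just above wt replicate 4. The means were 144 ± 18.8 TPM in the trex libraries and 181 ± 19.4 TPM in the wt libraries (SD, n = 4 each), a log2 difference of -0.33 ± 0.11 (SE). Nr2f6 (ENSMUSG00000002393, chromosome 8, 71374123 to 71381960), needed for the noradrenergic locus coeruleus, held 94.3, 106.6, 108.6 and 103 TPM in trex and 162, 168, 177 and 147 TPM in wt. All trex libraries lay below all wt libraries. The means were 103 ± 6.34 TPM in the trex libraries and 164 ± 12.3 TPM in the wt libraries (SD, n = 4 each), 1.58-fold lower in trex, a log2 difference of -0.66 ± 0.07 (SE).

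Nr2f2 (ENSMUSG00000030551, chromosome 7, 70351944 to 70366735), which gives veins and cardiac atria their identity, differed least. It held 71.5, 68.5, 71.1 and 68.9 TPM in trex and 57.3, 61.5, 62.8 and 61.0 TPM in wt. The groups did not overlap, but the closest libraries, trex replicate 2 and wt replicate 3, were only 5.71 TPM apart. The means were 70.0 ± 1.51 TPM in the trex libraries and 60.7 ± 2.36 TPM in the wt libraries (SD, n = 4 each), 1.15-fold higher in trex, a log2 difference of 0.20 ± 0.04 (SE).

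Across all 15717 genes with a mean of at least 1 TPM, a linear model (limma, Benjamini-Hochberg adjusted p below 0.05) called 8.71% as differing between the genotypes, 777 higher and 592 lower in trex. Quantile normalization gave 633 higher and 739 lower, and voom on recovered reads 642 and 820. Summed Y-linked transcripts were above 1 TPM only in wt replicates 2 and 3; with sex read from them as a covariate 39 genes were called, and 8 in the other 6 libraries alone. Leaving out any single library other than trex replicate 1 moved the total by more than 1.5 times, to between 199 without wt replicate 2 and 2926 without trex replicate 2. All 6 Tshz and Nr2f genes passed the level filter, and 4 were among the called genes, Tshz2 and Nr2f2 higher (4.94% of all tested genes were called in that direction) and Tshz1 and Nr2f6 lower (3.77%). The groups did not overlap for the same 4 genes and for 21.8% of all tested genes. Both counts follow from how the genes were chosen. The median log2 difference was -0.06 for the 6 genes and 0.04 for all tested genes. Over 20 alternative settings the log2 difference of Tshz2 ranged from 0.60 to 0.75 and that of Nr2f2 from 0.16 to 0.24. Nr2f2 was called in only 6 of the 20, Tshz2 in 17, Nr2f6 in 19 and Tshz1 in all 20. Tshz3 and Nr2f1, uncalled in the main fit, were called in 1 each.

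Expressed as shares within a family, which do not depend on how libraries are scaled, Tshz1 made up 40.3%, 50.1%, 47.8% and 45.6% of summed Teashirt TPM in trex replicates 1 to 4 and between 72.5% and 74.2% in wt. Tshz2 made up 29.8% to 33.3% in trex and 13.4% to 14.8% in wt, and Tshz3 19.7% to 26.4% in trex and 12.3% to 14.0% in wt. The family sum was 112 ± 11.3 TPM in the trex libraries and 151 ± 11.3 TPM in the wt libraries (SD, n = 4 each). There were 1.49 ± 0.20 Tshz1 transcripts for each Tshz2 transcript in trex and 5.26 ± 0.27 in wt.

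Shares in the Nr2f family differed less between genotypes than those in the Teashirt family, but only that of Nr2f1 overlapped. Nr2f1 held 45.3 ± 2.59% of summed Nr2f TPM in trex and 44.6 ± 2.79% in wt (SD, n = 4 each), and the libraries overlapped. Nr2f2 held 20.3% to 24.5% in trex and 13.5% to 16.5% in wt, and Nr2f6 31.5% to 34.2% in trex and 38.1% to 42.9% in wt. There were 1.48 ± 0.11 Nr2f6 transcripts for each Nr2f2 transcript in trex and 2.70 ± 0.19 in wt. For Nr2f1 the ratio to Nr2f2 was 2.06 ± 0.28 in trex and 2.99 ± 0.43 in wt. The family sum was 318 ± 23.7 TPM in trex and 405 ± 24.8 TPM in wt. These shares come from the same values as the levels above and are likewise untested.

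**Figure D2:**
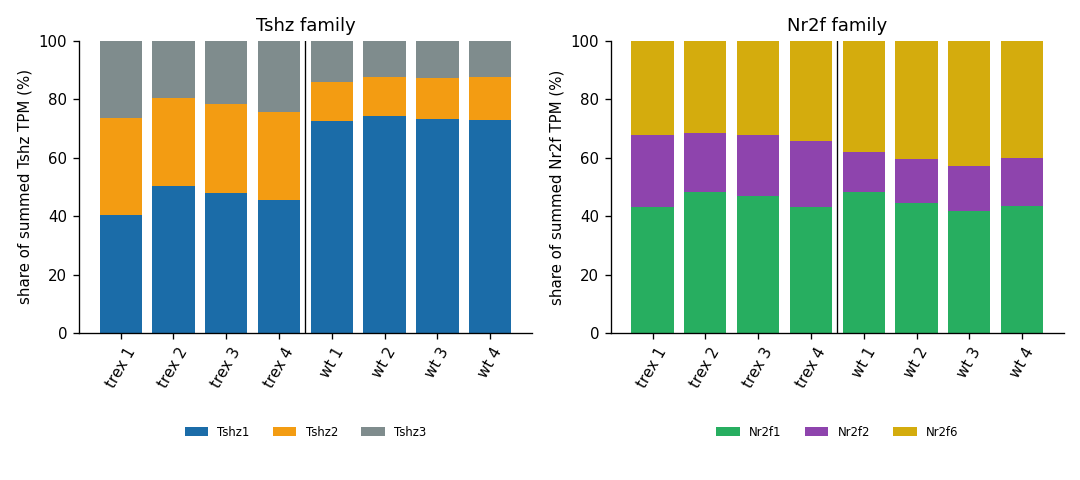
Share of each gene in the summed TPM of its family (y axis, percent) for each library (x axis), trex left of the line and wt right of it. The Tshz1 share lies between 40.3% and 50.1% in trex and between 72.5% and 74.2% in wt, while the Nr2f1 share overlaps between genotypes.

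Genes lying near the 6 were not used to choose them. Within 100 kb of their annotated spans lay 40 other genes, of which 18 had a mean of at least 1 TPM. The fit called 3 of the 18, beside 8.71% of all genes. Zadh2, a prostaglandin reductase gene (chromosome 18, 84088063 to 84097528), lies head to head with Tshz1, its annotated start 357 bases from that of Tshz1 on the other strand. It held 62.1, 43.2, 53.6 and 55.9 TPM in trex and 89.7, 104, 100.6 and 97.9 TPM in wt. All trex libraries lay below all wt libraries. Zadh2 fell to 53.7 ± 7.90 TPM in trex, against 98.1 ± 6.24 TPM in wt (SD, n = 4 each), a log2 difference of -0.87 ± 0.10 with an adjusted p of 0.00489 (limma). With sex as a covariate Zadh2 was not called, at a log2 difference of -0.80 ± 0.13 (SE, adjusted p = 0.0638, limma). In the 6 libraries low in Y-linked transcripts the difference was -0.80 ± 0.14 (0.151), also without a call. The adjusted p of Zadh2 ranged from 0.00174 to 0.151 over all alternatives. The ratio of Zadh2 to Tshz1 TPM was 1.21, 0.834, 1.08 and 1.07 in trex and 0.910, 0.935, 0.844 and 0.869 in wt. Zfp407, a zinc-finger gene that lies beyond Zadh2 on the same side, 40321 bases from Tshz1, held 11.4 ± 0.607 TPM in trex and 10.8 ± 0.190 TPM in wt without being called (adjusted p = 0.538).

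Beside Nr2f2, the non-coding gene B130024G19Rik overlaps it on the other strand. It rested on 75 to 271 reads in a library and held 4.95, 2.76, 3.45 and 3.50 TPM in trex and 2.67, 1.41, 1.66 and 1.36 TPM in wt. The lowest trex library lay just above the highest wt library. The log2 difference was 0.75 ± 0.20 (adjusted p = 0.0493, limma). The call was lost in 12 of 19 alternatives, 6 of them leaving out 1 library (trex replicate 1, 3 or 4 or wt replicate 2, 3 or 4), with adjusted p up to 0.370. A830082K12Rik, which overlaps Nr2f1 on the other strand, held 5.78 ± 0.481 TPM in trex and 7.05 ± 0.840 TPM in wt (adjusted p = 0.182). The strand setting of the read counter is not given in the sources used here, so reads of these overlapping pairs may not be fully separated.

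Around Nr2f6, 9 genes were tested and 1 was called. Mrpl34, a mitochondrial ribosomal protein gene 82999 bases away, fell to 195 ± 23.3 TPM in trex, against 260.1 ± 14.5 TPM in wt (adjusted p = 0.0267), and lost its call in 8 of 20 alternatives, 5 of them leaving out 1 library (adjusted p up to 0.0962 in those). The nearer genes Ushbp1, Use1 and Babam1 had log2 differences of 0.14 ± 0.18, 0.26 ± 0.11 and -0.0013 ± 0.04 and were not called. Myo9b (0.04 ± 0.05), Ankle1 (0.14 ± 0.18), Abhd8 (-0.39 ± 0.11), Dda1 (-0.10 ± 0.07) and Ano8 (-0.36 ± 0.15) were not called either. Zfp217 near Tshz2 (0.29 ± 0.08, adjusted p = 0.0539) and Fam172a near Nr2f1 (-0.03 ± 0.07) were not called, and Gm38285 near Tshz3 and Gm44946 and Gm44948 near Nr2f2 rested on at most 16, 6 and 2 reads in a library.

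**Figure D3:**
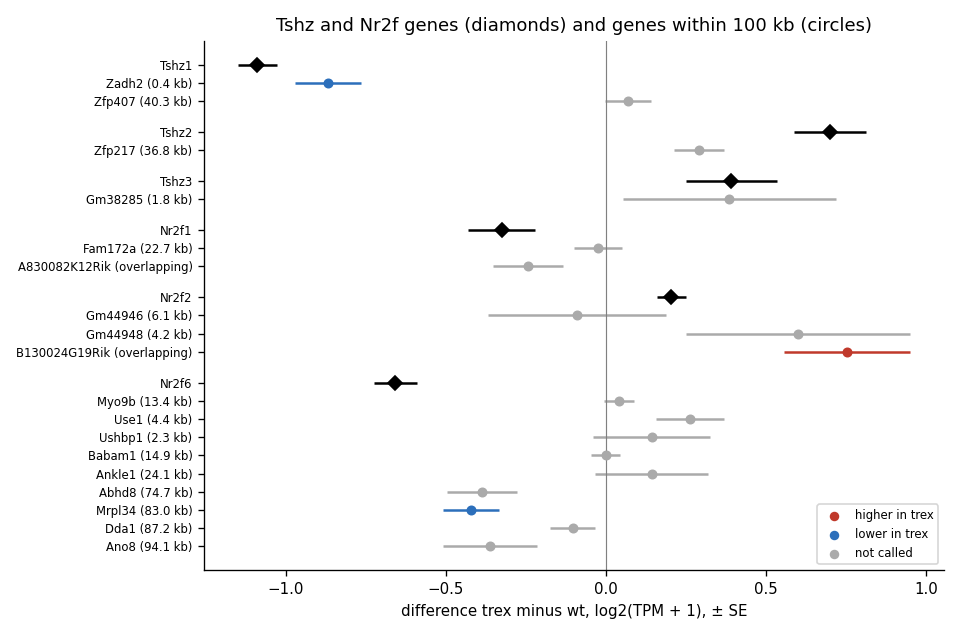
Difference trex minus wt on the log2(TPM + 1) scale with its SE (x axis) for each Tshz and Nr2f gene (diamonds) and the tested genes within 100 kb of it (circles, with the gap in kb). Zadh2 at -0.87 lies beside Tshz1 at -1.09, while Zfp407, farther out on the same side, is at 0.07.

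The genes known to respond to retinoic acid or to handle it were read beside the 6. Of 24 such genes, 12 were called lower, none higher and 12 were not called, beside 8.71% of all tested genes called. The list's median log2 difference was -0.42 against 0.04 for all tested genes, and 6 of the 24 differences were positive. The largest of these was that of Cyp26b1, named here after its values were seen. Cyp26b1 held 42.9 ± 17.8 TPM in trex and 19.6 ± 7.42 TPM in wt, with overlapping groups and no call (adjusted p = 0.0576, limma). Ripply3, a repressor of the caudal pharynx, fell to 13.0 ± 2.28 TPM in trex, against 37.5 ± 1.87 TPM in wt (adjusted p = 0.00108). Rarb, a retinoic acid receptor gene induced by its own ligand, fell to 25.3 ± 6.40 TPM in trex, against 54.9 ± 4.10 TPM in wt (0.00777), and Crabp2, a carrier of retinoic acid, to 1484 ± 152 TPM against 2222 ± 116 TPM (0.00852). Crabp1, the most abundant uncalled gene, held 3035 ± 513 TPM in trex and 2690 ± 600 TPM in wt (0.491). With sex as a covariate 1 gene of the list was called and 14 had an unadjusted p below 0.05. The log2 differences of the called genes of the list ran from -0.41 for Hoxb4 to -1.48 for Ripply3. That of Tshz1, which was chosen on its difference, was -1.09.

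Relatives and partners of COUP-TFs held no called gene. Of 20 listed, 15 were tested; limma called none, 5 had an unadjusted p below 0.05, and voom on recovered reads called 1. Without trex replicate 2, 2 were called. Their median log2 difference was 0.08. Rxra, the retinoid X receptor that can pair with COUP-TFs, held 64.6 ± 8.63 TPM in trex and 80.8 ± 4.61 TPM in wt (adjusted p = 0.0648), and its groups did not overlap. Rxra was the gene that voom called, at a log2 difference of -0.38 ± 0.10 (SE, adjusted p = 0.0465). Without trex replicate 2 limma called Rxra as well, at -0.39 ± 0.09 (adjusted p = 0.0238). Sp1, a partner on GC boxes, held 118 ± 16.5 TPM in trex and 99.9 ± 1.02 TPM in wt (0.119). Nr2e1, Nr2e3, Hnf4g, Thrb and Bcl11b had means below 1 TPM and were not tested.

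Vein and artery genes were listed because Nr2f2 represses arterial genes in venous endothelium. Of 20, 4 rose (4.94% of all tested genes did), 1 fell (3.77% of all) and 15 were not called, with a median log2 difference of 0.13. Tek and Emcn of this list are also among the 10 endothelial markers described below. The sum of those markers was higher in every trex library (476 to 564 TPM) than in any wt library (413 to 442.5 TPM). The part of endothelial content in the differences of this list was not tested. Dab2, an endocytic adaptor gene of venous endothelium, rose to 66.2 ± 6.79 TPM in trex, against 40.8 ± 1.41 TPM in wt (adjusted p = 0.00334), and Nrp2, a co-receptor of veins and lymphatics, to 128 ± 27.9 TPM against 68.2 ± 4.02 TPM (0.00996). Both are also expressed in other embryonic tissue. Gja4, an arterial connexin gene, fell to 19.6 ± 2.55 TPM in trex, against 29.7 ± 1.58 TPM in wt (0.0129; 0.0578 without wt replicate 2), while Acvrl1, a BMP receptor gene of arterial endothelium, rose to 23.8 ± 4.20 TPM against 14.8 ± 1.07 TPM (0.0213; lost without trex replicate 4 and without each of wt replicates 2, 3 and 4, up to 0.0757). Tek, an endothelial receptor gene named here after its values were seen, was the remaining called gene with 45.8 ± 7.32 TPM in trex, against 31.4 ± 4.23 TPM in wt (0.0398). Ephb4, the vein receptor for ephrin-B2, held 130.4 ± 7.41 TPM in trex and 128 ± 6.43 TPM in wt (0.766), with a sign that turned under 3 other scalings. The count of called genes was 8 without trex replicate 1 or 2, 3 without trex replicate 4 or wt replicate 3, and 2 without wt replicate 2. With sex as a covariate limma called 0, and 7 had an unadjusted p below 0.05.

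Partners of Teashirt proteins and genes of the ureter network held 2 called genes of 15, both higher, beside 4.94% of all tested genes called higher, with a median log2 difference of -0.0019. Sox9, whose protein binds Tshz3 in ureter muscle precursors, rose to 61.2 ± 4.29 TPM in trex, against 43.7 ± 0.855 TPM in wt (adjusted p = 0.00489). Bmp4, a signal upstream of Tshz3 in the ureter, rose to 90.2 ± 10.4 TPM against 54.8 ± 4.19 TPM (0.00673). Ctnnb1, the beta-catenin gene, held 1229 ± 18.1 TPM in trex and 1269 ± 34.7 TPM in wt (0.536). Without trex replicate 2, 4 genes of the list were called, and with sex as a covariate limma called 0, with 3 at an unadjusted p below 0.05.

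**Figure D4:**
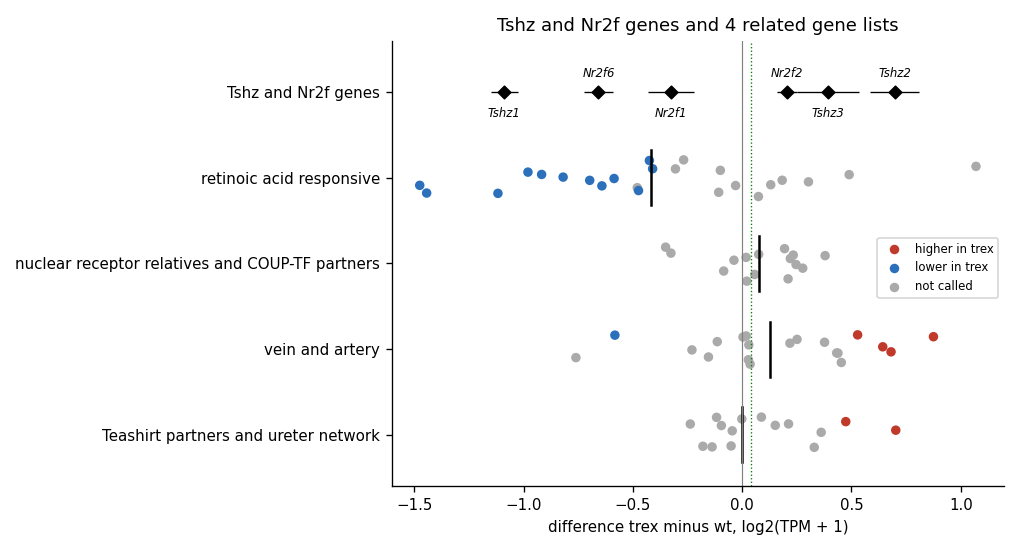
Difference trex minus wt on the log2(TPM + 1) scale (x axis) for the 6 Tshz and Nr2f genes (diamonds with SE) and the tested genes of 4 lists (points coloured by call, black bar at the list's median, dotted line at the median of all tested genes, 0.04). The retinoic acid list is centred at -0.42, and the 6 genes run from -1.09 for Tshz1 to 0.70 for Tshz2.

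The genes with the nearest profile over the 8 libraries were sought among 10731 protein-coding genes, by the root mean square difference of log2(TPM + 1) after each gene's own mean was removed. For Tshz1 they were Dusp14, Tmem200b and Metrn at 0.13, 0.13 and 0.18. Metrn, a secreted neural factor gene, held 150 ± 22.1 TPM in trex and 330 ± 22.4 TPM in wt. For Tshz2 they were Plp2, Perp and Gpc3 at 0.06, 0.06 and 0.07, Gpc3, a growth-restraining glypican gene, with 1007 ± 176 TPM in trex and 656 ± 58.6 TPM in wt. For Tshz3 they were Sun1, Hook2 and Oxld1 at 0.05, 0.06 and 0.06. For Nr2f1 they were Ovca2, Ildr2 and Rxra at 0.05, 0.05 and 0.06, and for Nr2f6 Cotl1, Ppdpf and Vash1 at 0.09, 0.09 and 0.10. Nr2f2 spanned only 0.31 on this scale over the libraries and was left out. Nearness here can rest on a like difference between genotypes or on like scatter within them, and carries no test. Plp2, Perp and Gpc3 were called in the main fit but lost the call in 9 of 19, 10 of 20 and 7 of 19 alternatives. Plp2 and Gpc3 lie on chromosome X. With sex as a covariate their log2 differences were 0.69 ± 0.17 and 0.62 ± 0.16 (SE), without a call. None of the genes nearest to Tshz3 or Nr2f1 was called in the main fit, and Sun1, Oxld1 and Ovca2 overlapped between genotypes. Sun1 held 66.3, 40.0, 46.4 and 55.2 TPM in trex replicates 1 to 4, highest in replicates 1 and 4 as for Tshz3.

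Markers of the tissues in the dissection moved with genotype and between libraries. None of the neural tube, somite, neural crest or arch and lateral mesoderm markers was at 0 in any library. Summed TPM of 12 neural tube markers was 465 to 620 in trex and 774 to 1018 in wt (5 lower). It was 583 to 712 in trex and 502 to 507 in wt for 10 neural crest markers (2 higher, 1 lower), 608 to 845.5 and 558 to 636 for 12 somite markers (2 higher), and 341 to 399 and 329 to 412 for 10 arch and lateral mesoderm markers (3 higher, 3 lower). In the other lists, 10 endothelial markers summed to 476 to 564 TPM in trex and 413 to 442.5 TPM in wt (2 higher). The 10 posterior axis genes summed to 449 to 585 TPM in trex and 69.8 to 212 TPM in wt (6 higher). Genotype and the extent of the dissection cannot be told apart in these sums. The ranges overlapped for 10 cardiomyocyte markers (153 to 1454 TPM in trex, 122 to 1395 TPM in wt), 8 liver markers (10.8 to 493 TPM, 8.66 to 194 TPM) and 8 erythroid markers (3081 to 15914 TPM, 7185 to 16146 TPM), with none called. The liver sums were 10.8, 32.5, 251 and 493 TPM in trex replicates 1 to 4. In wt replicates 1 to 4 the liver sums were 15.2, 8.66, 179 and 194 TPM, so replicates 3 and 4 stood higher in both genotypes. Nppa, Alb and Fgb were listed at 0 in at least 1 library. The part of these differences in the levels of the Tshz and Nr2f genes was not tested. Rdh10 itself held 76.0 ± 20.2 TPM in trex and 38.8 ± 2.20 TPM in wt, and since the allele need not lower its transcript this does not check the labels.

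**Figure D5:**
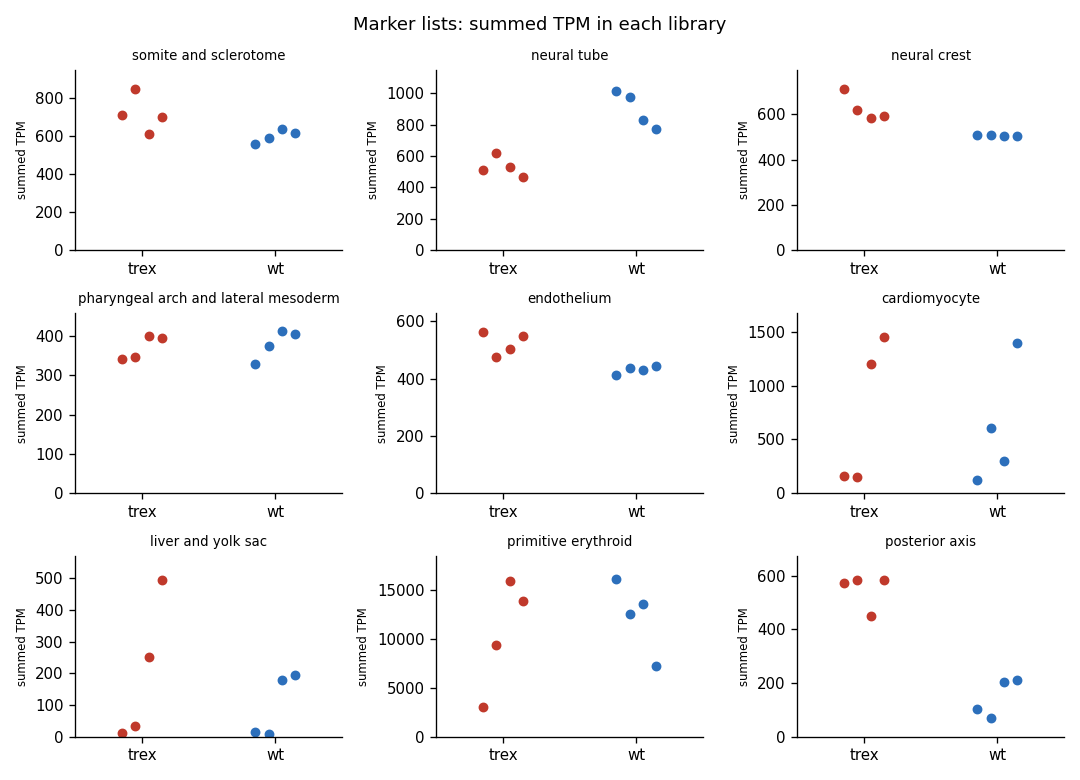
Summed TPM of each marker list (y axis, from 0, own scale in each panel) in the 4 trex and 4 wt libraries (x axis). The neural tube sum lies lower in every trex library than in any wt library, and the neural crest, endothelial and posterior axis sums lie higher.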

How the data were processed

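The deposited values are TPM, scaled by the authors to gene length and library total, each of the 8 columns summing to 1000000. The tools CASAVA 1.8.2 and STAR and the build mm10 are named per the submitters' processing notes. Which counter, strand setting and annotation release made the values is not given in the sources used here. Names, positions and exonic lengths came from GENCODE M21 on the same assembly (55240 of 55421 identifiers matched). TPM times exonic length gave whole multiples of 1 step, within 0.001 read, for 98.7% to 98.9% of values up to 200 reads, or 20928981 to 23648646 reads in a library.

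Genes with a mean of at least 1 TPM were fitted with limma 3.58.1 in R 4.3.3 (trend, two-sided, genotype as the only term) on log2(TPM + 1), which understates changes of low genes, and called at an adjusted p below 0.05. The step was checked on simulated data in which genes varied independently. That check does not cover scatter shared across genes within a library. Folds are ratios of mean TPM. The 6 genes and all lists were chosen with earlier results of these data known.

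Named genes are the 6; Rdh10; up to 4 called genes of smallest p and the most abundant uncalled gene of each of 4 lists; genes within 100 kb with a mean of at least 1 TPM; and, for a gene spanning at least 0.5, its 3 nearest profiles among named protein-coding genes averaging at least 5 TPM; 1 gene so chosen is not reported here. Sex was read from Y-linked transcripts, whose summed TPM was above 1 only in wt replicates 2 and 3 (162 and 158 TPM). Alternatives changed the pseudocount, filter, scaling, variance model, tool, covariates or libraries.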

Additional observations from a re-analysis of the deposited data

Results flagged for a closer look

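By Dixon's test on the 4 libraries of a genotype, 1 library stood apart in 7 of 116 sets of values, where chance gives about 1 in 20. None of them was a level or family share of a Tshz or Nr2f gene. Among genes near them, Zfp407 stood at 12.4 TPM in trex replicate 3 and 11.1 to 11.2 TPM in the other trex libraries. Use1 stood at 109 TPM in trex replicate 1 and 79.4 to 82.0 TPM in the others. Gm44946 (0.298 TPM, others 1.21 to 1.32) and Gm44948 (1.14 TPM, others 2.33 to 2.53) were low in trex replicate 4, each resting on a few reads. Among list genes, Sp1 stood at 98.4 TPM in wt replicate 3 (others 100.4 to 100.6) and Ctnnb1 at 1217 TPM in wt replicate 1 (others 1281 to 1294). The posterior axis markers summed to 449 TPM in trex replicate 3 and 573 to 585 TPM in the other trex libraries.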

How the results depend on the processing

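Over 20 alternatives the differences of the 6 Tshz and Nr2f genes, which were chosen on them, moved by less than the replicate SD except that of Nr2f2, which was 0.16 with voom. Counts of calls moved more. Of all genes, 694 were called with no filter, 39 with sex as a covariate and 8 in the 6 libraries low in Y-linked transcripts. In the last 2 settings 2 and 1 of the 6 genes were called, 1 and 0 of the retinoic acid list, and 0 and 0 of both the vein and artery and the Teashirt list by limma; at an unadjusted p below 0.05 they were 14 and 12, 7 and 7, and 3 and 3. Voom called 1 relative or partner of COUP-TFs. Leaving out each library gave 199 to 2926 of all genes, 2 to 6 of the 6 genes, 8 to 14 retinoic acid genes, 2 to 8 vein and artery genes, 2 to 4 Teashirt partners and 0 to 2 COUP-TF relatives. The cause was not tested.

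With the replicate number as a block, 687 genes and 3 of the 6 were called. Libraries with the same replicate number in the labels deviated together with r = 0.16, -0.02, -0.0045 and 0.25. Of the 8 libraries, 4 were closest to their own number. Whether the numbers pair the libraries cannot be told from these values, and the main fit left the number out. Summed liver markers were higher in replicates 3 and 4 than in replicates 1 and 2 in both genotypes.

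Signs turned in 16 fits, all of uncalled genes. Ephb4 was -0.012 with median-of-ratios rescaling, -0.013 without globin, mitochondrial and sex chromosome genes and -0.021 with voom; Zfp407 was -0.019 after quantile normalization; Myo9b was -0.00012 without those genes and -0.0064 with voom; Babam1 was 0.015 with sex as a covariate and 0.015 in the low-Y libraries. Leaving out each library gave -0.0021 to 0.068 for Ephb4, -0.072 to 0.032 for Fam172a, -0.22 to 0.11 for Gm44946, -0.021 to 0.020 for Babam1 and -0.0095 to 0.31 for Ankle1. Depth limits the low non-coding neighbours rather than the 6 genes.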
